A study of Mus musculus with 14 samples.

Results

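The genes described here are 35 mouse genes of the SR protein network, which decides which exons enter messenger RNA: *Pnisr*, the SR and SR-like proteins (*Srsf1* to *Srsf7*, *Srsf9* to *Srsf12*, *Tra2a*, *Tra2b*), the kinases that phosphorylate them (*Clk1* to *Clk4*, *Srpk1*, *Srpk2*), and their partners in nuclear speckles. The set was selected on the measured levels of *Pnisr*, which were lower in the Nrf2-treated eye of all 7 mice. Values of *Pnisr* therefore describe what chose the set and carry no test. The other 34 genes were listed by family and function, with earlier results of these data known. The list was thus not drawn up independently of the values below. All 35 were found among 34452 mouse genes in the count table and all 35 passed the filter on low counts, as did 16289 genes in all.

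RNA was from the retinal pigment epithelium (RPE) of *rd1* mice at postnatal day 20. *rd1* mice (FVB/N) lack the function of Pde6b, a phosphodiesterase that rods need, so that rods die in the first weeks. For each of the 7 mice, 1 eye received AAV Best1 Nrf2, an adeno-associated virus (AAV) carrying human Nrf2 under the RPE promoter Best1, together with AAV Best1 GFP. The other eye received AAV Best1 GFP only, so both groups carried the GFP vector (capsid 7M8) and the groups (Nrf2 and control, n = 7 each) differed by the Nrf2 transgene and by the added AAV8 vector that bore it. The retina was taken off, RNA was drawn from the remaining eyecup, and it was amplified with a low-input kit, so RNA of neighbouring tissue could remain.

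Total counts ran from 16548349 in Nrf2 2 to 50543008 in Nrf2 7. The vector transcript, human NFE2L2, reached 4577 to 8711 CPM (the count divided by the library total and multiplied by 1e+06) in 6 Nrf2 libraries and 1.12 to 175 CPM in 6 control libraries. The libraries labelled Nrf2 4 and control 3 each stood at 1163 CPM, between the groups. They were also the closest of the 91 pairs of libraries over all genes tested, with a median absolute difference of 0.117 in log2 CPM, where the next closest pair (Nrf2 1 and Nrf2 3) stood at 0.201 and both eyes of a mouse at 0.310 to 0.629. All counts of 7 mice below include these libraries under their labels, and results are also given with mice 3 and 4 left out. Nrf2 2 had 2.55% of its counts on pseudogenes against 1.06% to 1.17% in the other libraries, and it had the fewest counts. *Rpe65*, the isomerohydrolase of the visual cycle and a defining RPE marker, stood at 720.2 to 2097 normalised CPM (CPM after scaling of each library by the trimmed mean of M-values, TMM) in control eyes and 137 to 1046 in Nrf2 eyes, where it fell (log2 fold change -2.17, adjusted p = 0.0198 in edgeR). The 12 RPE markers had a median log2 fold change of -0.01, with 6 of 12 below 0. Their summed level had a median of 20160 normalised CPM in control and 22120 in Nrf2 eyes, and without the transthyretin gene *Ttr*, which did not pass the test, 18280 and 14770.

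SR proteins bind short enhancer sequences in exons through an RNA recognition motif and recruit the spliceosome through a tail of repeated arginine and serine (the RS domain). Srpk kinases phosphorylate that tail in the cytoplasm and send the proteins to the nucleus, where they are stored in speckles. Clk kinases phosphorylate it further and release them to sites of transcription. Many genes of the network control their own level: a cassette exon with a stop codon, or an intron that is kept in, turns the transcript into a target of nonsense-mediated decay (NMD) or holds it in the nucleus. Loss-of-function mutations in general splicing factors are a known cause of retinitis pigmentosa in humans.

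Transcripts of both kinds are annotated for most of the 35 genes, which does not show that they control the level of the gene. In GENCODE M21 (build GRCm38), 31 of the 35 (88.6%) had at least 1 transcript annotated as an NMD target, against 26.5% of 15355 protein-coding genes tested. A retained-intron transcript was annotated for 30 of the 35 (85.7%), against 54.6%, and the median number of annotated transcripts was 10 against 5. The values below are counts per gene, which add up productive, NMD-targeted and intron-retaining transcripts and do not separate them. Levels are normalised CPM throughout. Differences within a mouse are log2 CPM of the Nrf2 eye minus the control eye.

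Within the network, levels per kilobase (kb) of the longest protein-coding transcript spread widely in control eyes. *Srsf5* was highest at 258 ± 22.4 normalised CPM per kb (SD, n = 7), followed by the RNA helicase gene *Ddx5* at 159.7 ± 15.9 and by *Srsf2* at 144 ± 12.5. Between *Ddx5* and *Srsf2* the gap was smaller than the larger of their SDs. *Clk1*, at 50.7 ± 7.14 normalised CPM per kb, led the kinases, ahead of *Clk3* (23.03 ± 2.99), *Clk4* (19.9 ± 2.15), *Clk2* (15.97 ± 3.22), *Srpk2* (9.49 ± 0.681) and *Srpk1* (8.42 ± 0.618). *Pnisr* ranked 18 of 35 at 24.9 ± 2.93, and *Srsf12*, a protein known to oppose other SR proteins, was lowest at 1.59 ± 1.12. Of the 34 neighbouring pairs in this order, 25 lay closer together than the larger of their SDs.

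**Figure D1:**
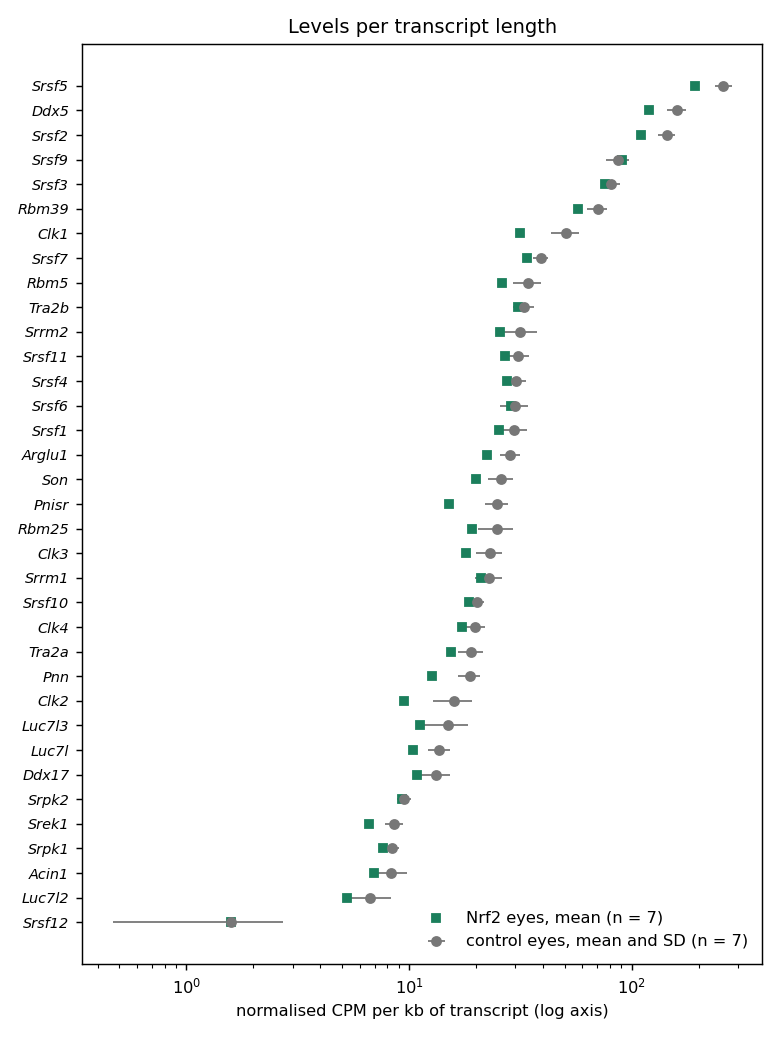
Levels of the 35 genes in normalised CPM per kb of the longest protein-coding transcript, on a log axis. Grey circles and bars are the mean and SD of 7 control eyes, and green squares are the mean of 7 Nrf2 eyes. *Srsf5* is highest and *Srsf12* lowest in both groups, and the squares lie to the left of the circles for most genes, *Clk1*, *Clk2*, *Pnn* and *Pnisr* among them.

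*Pnisr* (ENSMUSG00000028248; chromosome 4, 21847583 to 21876475, plus strand) encodes a protein with an RS domain that sits in nuclear speckles and binds Pinin. In control eyes of mice 1 to 7 it stood at 115, 119, 91.2, 127, 98.2, 119.7 and 122 normalised CPM. In the Nrf2 eyes of the same mice it stood at 70.3, 71.0, 56.3, 76.2, 64.4, 72.7 and 69.2 normalised CPM. Every Nrf2 library was below every control library, and the highest Nrf2 value and the lowest control value came from the libraries labelled Nrf2 4 and control 3.

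The mean of *Pnisr* was 113 ± 13.3 normalised CPM in control and 68.6 ± 6.48 in Nrf2 eyes (SD, n = 7), with a fitted log2 fold change of -0.72. In RNA of a whole tissue, fewer cells of a type and less RNA per cell cannot be told apart. The difference within a mouse was narrow, from -0.82 to -0.61 on the log2 scale. Of 16289 genes, 476 (2.92%) were lower in the Nrf2 eye of all 7 mice, and in 25 of these the smallest fall was at least as large as that of *Pnisr*. A total of 17 genes had 7 differences that spanned no wider a range, and 5 of them were lower in all 7 mice. *Pnisr* was chosen on these same differences, so the counts describe it and are not a test. With mice 3 and 4 left out the log2 fold change of *Pnisr* was -0.72, and with mice 2, 3 and 4 left out it was -0.71.

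Apart from *Pnisr*, 4 of 34 genes fell in Nrf2 eyes and 0 rose, by the quasi-likelihood F-test of edgeR with the mouse as a block and an adjusted p under 0.05. The 4 were *Clk1*, *Clk2*, *Pnn* and *Srek1*. Over all genes tested the same test called 0.491% lower and 2.94% higher. At an unadjusted p under 0.05, 20 of the 34 were lower and 0 higher, where 7.49% of all genes were lower. In either direction 18.1% of all genes had such a p, the share to set beside the counts for groups of genes below. The log2 fold change was below 0 for 32 of the 34, against 54.8% of all genes, and their median was -0.29 against -0.04 over all genes. The genes of the network are related and are not replicates of each other, and no test was made over the list.

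With mice 3 and 4 left out, 3 of the 34 were called lower (*Clk1*, *Clk2* and *Pnn*), where 1.58% of all genes were, and the median was -0.35. With mouse 2 left out too, 1 was (*Pnn*), where 0.325% of all genes were. Without the block for mouse the number was 8, where 1.37% of all genes were called lower. It was 11 with DESeq2, where 4.33% were, and 13 with voom and quality weights, where 6.19% were. Beside the same 4 genes, DESeq2 called *Ddx5*, *Rbm5*, *Rbm25*, *Rbm39*, *Son*, *Srsf2* and *Srsf5* lower. In the edgeR fit the number also depended on single mice. It was 9 of 34 without mouse 4, where 6.17% of all genes were called lower, 3 without mouse 2 (0.382% of all genes), 2 without mouse 6 (0.244%) and 1 without mouse 1 (0.0801%). It was 0 without mouse 3, 5 or 7, where 0.117%, 0.0919% and 0.0552% of all genes were called lower. In these last fits the numbers with an unadjusted p under 0.05 were 17, 17 and 15 of 34, all lower. The share of all genes at that level was counted only with all mice, where 7.49% were lower.

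**Figure D2:**
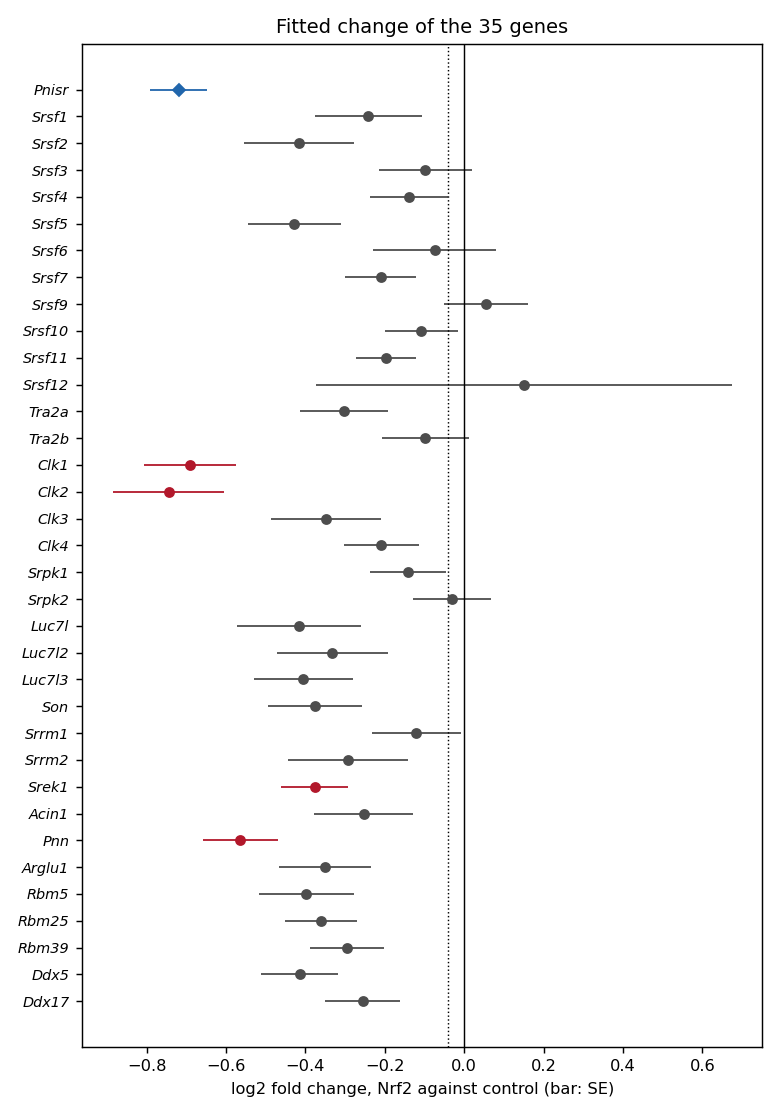
Fitted log2 fold change, Nrf2 against control, of each of the 35 genes with its standard error (SE) as a bar. The blue diamond is *Pnisr*, which chose the set, red circles are the 4 genes past an adjusted p of 0.05, grey circles are the others, and the dotted line is the median of all genes at -0.04. Every gene but *Srsf9* (0.05) and *Srsf12* (0.15) lies below 0.

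Among the 8 classical SR proteins, which act on enhancers in exons and, for *Srsf1*, *Srsf3* and *Srsf7*, also shuttle to the cytoplasm with messenger RNA, 0 passed the test and 3 had an unadjusted p under 0.05. Of the 8, 7 had a log2 fold change below 0, with a median of -0.18 and a range of -0.43 to 0.05. The smallest p belonged to *Srsf5* (chromosome 12, 80945504 to 80950507). In control eyes of mice 1 to 7 it stood at 367, 387, 386, 392, 423, 474 and 408 normalised CPM. In the Nrf2 eyes it stood at 304, 230.1, 282, 376, 311, 287 and 333 normalised CPM. The Nrf2 eye was lower in 7 of 7 mice, only Nrf2 4 reached into the control range, and the fitted change was -0.43 log2 units (SE 0.12, adjusted p = 0.0938 in edgeR).

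*Srsf2*, which stays in the nucleus, had a fitted difference of -0.42 log2 units (SE 0.14, adjusted p = 0.160 in edgeR), with lower values in 6 of 7 mice. Its level in Nrf2 2, 126 normalised CPM, was far below the next Nrf2 library at 196. For *Srsf1*, *Srsf7*, *Srsf4*, *Srsf3* and *Srsf6* the log2 fold changes were -0.24, -0.21, -0.14, -0.10 and -0.07, with adjusted p from 0.261 to 0.840 in edgeR. *Srsf6* was lower in 3 of 7 mice only, and *Srsf9* in 2 of 7.

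The 5 SR-like proteins include *Srsf10*, a repressor when dephosphorylated after heat shock, and the Transformer-2 pair, which binds GAA-rich enhancers. Again 0 of 5 passed the test and 2 had an unadjusted p under 0.05, with a median log2 fold change of -0.11. *Tra2a* (chromosome 6, 49243924 to 49264033) had the smallest p of the group. It stood at 32.4, 33.3, 29.9, 30.0, 34.3, 40.6 and 39.7 normalised CPM in control eyes of mice 1 to 7. It stood at 26.9, 23.5, 24.3, 30.1, 34.7, 27.5 and 28.0 normalised CPM in the Nrf2 eyes. The groups overlapped, the Nrf2 eye was lower in 5 of 7 mice, and the fitted change was -0.30 log2 units (SE 0.11, adjusted p = 0.195 in edgeR). *Srsf11* was lower in 7 of 7 mice by a smaller amount, -0.20 (SE 0.07, adjusted p = 0.211 in edgeR). For *Srsf10* and *Tra2b* the log2 fold changes were -0.11 and -0.10. *Srsf12*, at 4.67 ± 3.30 normalised CPM in control eyes (SD, n = 7), ranged from -1.75 to 2.03 within a mouse, so its log2 fold change of 0.15 (SE 0.52) carries no direction.

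**Figure D3:**
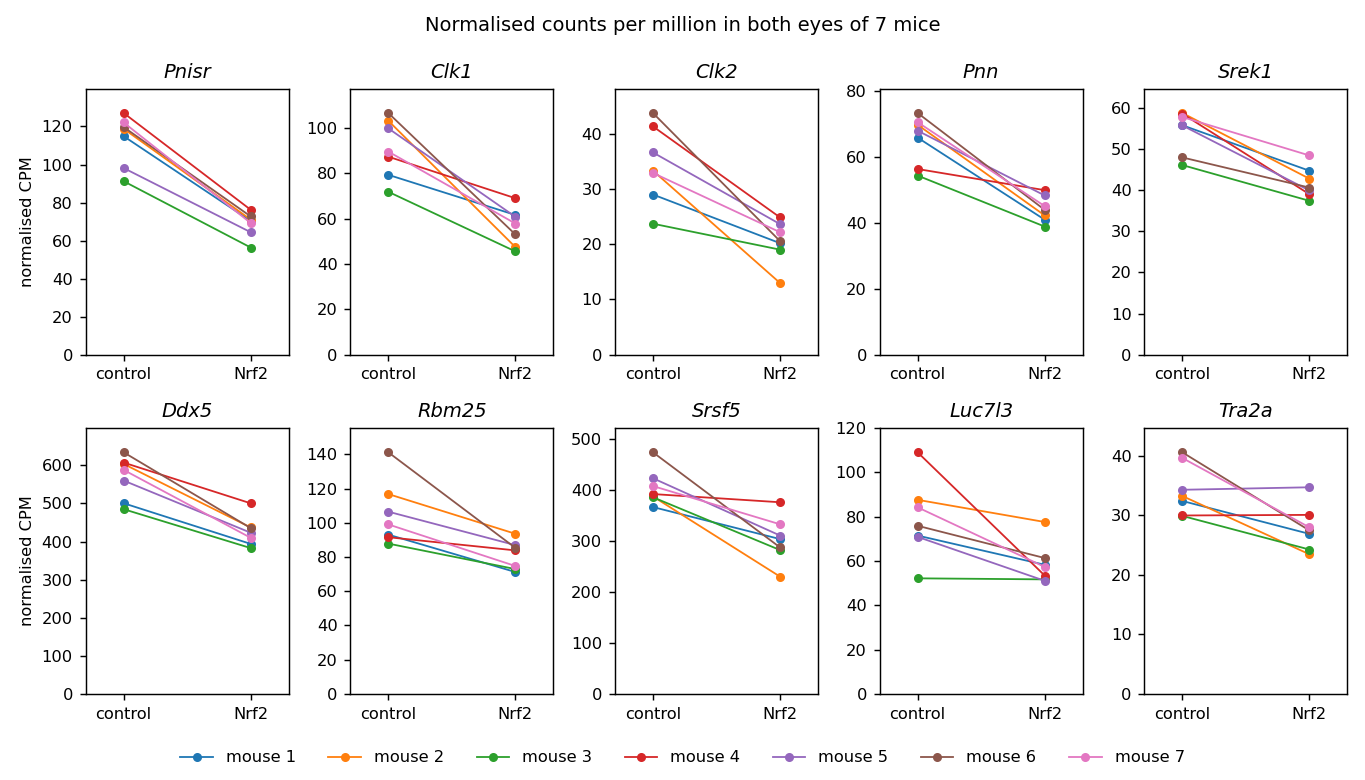
Normalised CPM of *Pnisr* and 9 other genes in the control eye (left) and the Nrf2 eye (right) of each mouse, with 1 line per mouse and axes from 0. The lines of *Pnisr*, *Clk1*, *Clk2*, *Pnn* and *Srek1* all point down, and that of mouse 4 is the flattest for *Srsf5*.

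Of the 6 kinases, *Clk1* and *Clk2* fell and the other 4 did not pass the test. *Clk1* (ENSMUSG00000026034; chromosome 1, 58410189 to 58424066, minus strand) encodes the dual-specificity kinase best known for releasing SR proteins from speckles. In control eyes of mice 1 to 7 it stood at 79.3, 103, 71.8, 87.3, 99.8, 107 and 89.6 normalised CPM. In the Nrf2 eyes it stood at 61.6, 47.4, 45.5, 69.0, 60.8, 53.0 and 57.8 normalised CPM. All Nrf2 libraries were below all control libraries, with Nrf2 4 and control 3 closest to each other. The fitted change was -0.69 log2 units (SE 0.12, adjusted p = 0.0192 in edgeR), with 7 of 7 mice lower by 0.34 to 1.12.

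*Clk2* (ENSMUSG00000068917; chromosome 3, 89164795 to 89176921, plus strand) encodes another speckle kinase, which in liver is also known to act on gluconeogenesis. It stood at 29.0, 33.3, 23.7, 41.4, 36.6, 43.8 and 32.9 normalised CPM in control eyes of mice 1 to 7. It stood at 20.2, 12.98, 19.02, 24.9, 23.7, 20.6 and 22.2 normalised CPM in the Nrf2 eyes. Only Nrf2 4 lay above the lowest control library, which was control 3. The fitted change was -0.74 log2 units (SE 0.14, adjusted p = 0.0281 in edgeR), with 7 of 7 mice lower by 0.32 to 1.36. With mice 3 and 4 left out, *Clk1* had a log2 fold change of -0.77 (adjusted p = 0.0357 in edgeR) and *Clk2* one of -0.83 (adjusted p = 0.0475).

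*Clk3* and *Clk4*, the close relatives of both, had log2 fold changes of -0.35 (SE 0.14, adjusted p = 0.233 in edgeR) and -0.21 (SE 0.09, adjusted p = 0.287), each with 6 of 7 mice lower. The cytoplasmic kinases *Srpk1* and *Srpk2* had log2 fold changes of -0.14 (SE 0.10, adjusted p = 0.465 in edgeR) and -0.03 (SE 0.10, adjusted p = 0.901). Whether the Clk and Srpk genes differ in their response was not tested.

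The 3 Luc7-like genes encode relatives of a yeast U1 snRNP protein that helps to choose 5′ splice sites. None passed the test, all 3 had an unadjusted p under 0.05, and their log2 fold changes were -0.42 for *Luc7l*, -0.41 for *Luc7l3* and -0.33 for *Luc7l2*, with adjusted p from 0.134 to 0.255 in edgeR. *Luc7l3* (chromosome 11, 94287890 to 94321988) stood at 71.5, 87.6, 52.2, 109, 70.9, 75.9 and 84.3 normalised CPM in control eyes of mice 1 to 7. It stood at 58.3, 77.6, 51.7, 53.5, 51.1, 61.4 and 57.4 normalised CPM in the Nrf2 eyes. The groups overlapped through Nrf2 2 and control 3, and the difference within a mouse ran from -0.01 in mouse 3 to -1.03 in mouse 4.

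Of the 7 RS-rich speckle and coactivator genes, *Pnn* and *Srek1* fell, and the median log2 fold change was -0.35. *Pnn* (ENSMUSG00000020994; chromosome 12, 59066884 to 59073998, plus strand) encodes Pinin, a protein of speckles and of desmosomes that joins the exon junction complex. It stood at 65.8, 69.7, 54.3, 56.3, 67.9, 73.2 and 70.5 normalised CPM in control eyes of mice 1 to 7. It stood at 40.9, 42.2, 38.8, 49.9, 48.2, 43.9 and 45.0 normalised CPM in the Nrf2 eyes. The groups did not overlap, and the smallest fall was in mouse 4. The fitted change was -0.56 log2 units (SE 0.10, adjusted p = 0.0196 in edgeR), with 7 of 7 mice lower by 0.17 to 0.74, and it was -0.66 with mice 3 and 4 left out (adjusted p = 0.0234).

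*Srek1* (ENSMUSG00000032621; chromosome 13, 103739348 to 103774608, minus strand) encodes an RS-rich protein that modulates other SR proteins. It stood at 55.8, 58.8, 46.1, 58.6, 55.8, 48.0 and 57.8 normalised CPM in control eyes of mice 1 to 7. It stood at 44.8, 42.8, 37.4, 39.0, 39.9, 40.7 and 48.5 normalised CPM in the Nrf2 eyes. Only Nrf2 7 lay above the lowest control values, those of control 3 and control 6. The fitted change was -0.38 log2 units (SE 0.08, adjusted p = 0.0488 in edgeR), with 7 of 7 mice lower by 0.24 to 0.59. The call sat at the threshold, and with mice 3 and 4 left out the log2 fold change was -0.35 (adjusted p = 0.123 in edgeR).

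*Son*, a scaffold of speckles, and *Arglu1*, an RS-rich coactivator, did not pass the test although no Nrf2 library reached the lowest control library. Their log2 fold changes were -0.38 (SE 0.12, adjusted p = 0.139 in edgeR) and -0.35 (SE 0.12, adjusted p = 0.160). Of the 34 genes, 4 had groups that did not overlap (*Clk1*, *Pnn*, *Son* and *Arglu1*), against 0.381% of all genes. With mice 3 and 4 left out the number was 10 of 34, against 2.07% of all genes. The other speckle scaffold *Srrm2*, its partner *Srrm1* and the apoptotic chromatin factor *Acin1* had log2 fold changes of -0.29, -0.12 and -0.25, with adjusted p from 0.324 to 0.603 in edgeR.

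*Rbm5*, *Rbm25* and *Rbm39* encode RNA-binding splicing factors, of which *Rbm39* is the target of aryl sulfonamide degraders. None passed the test, all 3 had an unadjusted p under 0.05, and log2 fold changes were -0.40, -0.36 and -0.30. *Rbm25* (chromosome 12, 83631236 to 83683123) stood at 93.1, 117, 87.8, 91.6, 107, 141 and 99.1 normalised CPM in control eyes of mice 1 to 7. It stood at 71.2, 93.6, 73.0, 83.9, 87.0, 85.3 and 74.8 normalised CPM in the Nrf2 eyes. Only Nrf2 2 reached into the control range, 7 of 7 mice were lower, and the adjusted p was 0.0722 in edgeR (SE 0.09).

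*Ddx5* and *Ddx17* encode paralogous DEAD-box helicases that unwind RNA during splicing and microRNA processing. *Ddx5* (chromosome 11, 106780355 to 106789185) stood at 501, 604, 485, 607, 560.0, 634 and 588 normalised CPM in control eyes of mice 1 to 7. It stood at 394, 437, 383, 500.3, 423, 435 and 409.8 normalised CPM in the Nrf2 eyes. Nrf2 4 lay above control 3 and all other Nrf2 libraries lay below every control library. The fitted change was -0.41 log2 units (SE 0.10, adjusted p = 0.0580 in edgeR), with 7 of 7 mice lower by 0.28 to 0.54, and that of *Ddx17* was -0.26 (SE 0.09, adjusted p = 0.203).

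In all, 12 of the 34 genes were lower in the Nrf2 eye of all 7 mice, where 2.92% of all genes were. Mice differed in how far the set moved. The median difference over the 34 genes was -0.48 in mouse 6 and -0.45 in mouse 2, between -0.24 and -0.18 in mice 1, 3, 5 and 7, and -0.12 in mouse 4. The number of the 34 that were lower was 32 in mouse 6, 30 in mice 2, 3 and 5, 28 in mouse 1, 26 in mouse 7 and 22 in mouse 4. In the same mice 44.8% to 55.7% of all genes were lower, with the lowest share in mouse 4.

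Single libraries stood at the edges of their groups. Control 6 was the highest control library for 19 of the 34 genes, and control 3 and control 4 were the lowest for 15 and 10. Among Nrf2 libraries, Nrf2 2 was the lowest for 14 genes and Nrf2 3 for 10. Nrf2 4 was the highest for 12, Nrf2 7 for 9 and Nrf2 2 for 7, so Nrf2 2 stood at both edges. The largest fall was in mouse 2 for 14 genes and in mouse 6 for 13.

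**Figure D4:**
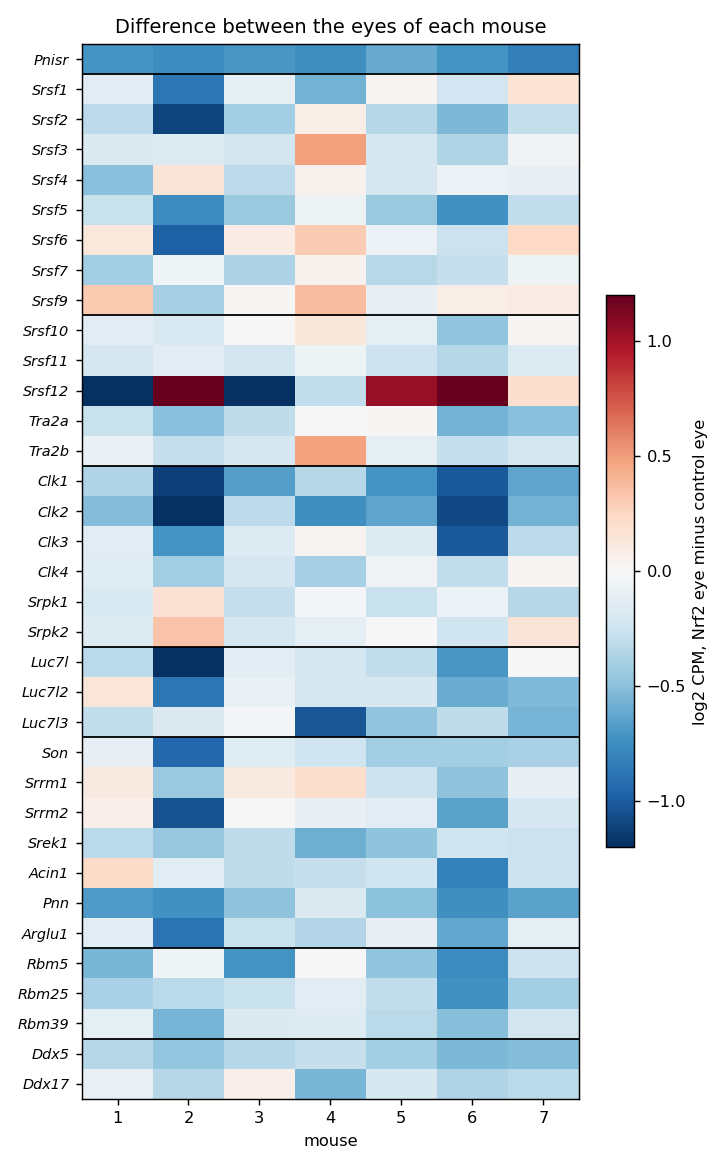
Difference of log2 CPM, Nrf2 eye minus control eye, for each of the 35 genes (rows, in role groups parted by black lines) in each of 7 mice (columns). Blue is lower and red higher in the Nrf2 eye, with colours ending at the limits of the bar. The row of *Pnisr* is evenly blue, apart from the row of *Srsf12* the columns of mice 2 and 6 hold the darkest blues, the column of mouse 4 holds the most red cells, and *Srsf12* changes sign between mice.

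The promoters of the genes that fell were read from RefSeq (GRCm38.p6), which gave windows for 31 of the 35 genes. *Pnisr*, *Clk1*, *Luc7l* and *Arglu1* were not among them. The bases before the start site are shown for *Clk2*, *Pnn* and *Srek1*, the genes past the threshold with a window, because they hold the elements that could be compared between genes that moved together. Each runs over 250 bases, except that of *Pnn*, which stops after 215 bases at the first annotated base of the gene in GENCODE. Capitals mark exact matches, on either strand, to the 10 motifs named below.
Clk2 (chr3:89164545-89164794, plus strand): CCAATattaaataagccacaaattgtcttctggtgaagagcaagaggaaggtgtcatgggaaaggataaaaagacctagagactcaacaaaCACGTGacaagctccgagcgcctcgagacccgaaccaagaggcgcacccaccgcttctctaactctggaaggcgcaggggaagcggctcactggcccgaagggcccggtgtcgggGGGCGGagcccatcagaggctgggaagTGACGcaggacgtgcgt
Pnn (chr12:59066669-59066883, plus strand): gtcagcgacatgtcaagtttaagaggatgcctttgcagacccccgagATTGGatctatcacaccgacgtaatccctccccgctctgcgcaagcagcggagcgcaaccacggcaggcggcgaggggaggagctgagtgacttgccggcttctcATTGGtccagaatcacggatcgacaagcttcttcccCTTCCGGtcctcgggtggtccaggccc
Srek1 (chr13:103774609-103774858, minus strand): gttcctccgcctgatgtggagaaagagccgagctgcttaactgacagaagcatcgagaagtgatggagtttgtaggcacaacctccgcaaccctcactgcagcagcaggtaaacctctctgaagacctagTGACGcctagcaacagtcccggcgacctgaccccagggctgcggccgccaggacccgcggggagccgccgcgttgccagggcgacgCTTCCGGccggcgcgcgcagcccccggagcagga

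These 3 stretches are rich in G and C (57.2%, 60.5% and 65.2%) and hold different elements, with positions counted back from the RefSeq start site at -1. *Clk2* holds TGACG, the core of the cyclic AMP response element, at -17 to -13, GGGCGG (SP1) at -44 to -39, CACGTG (E-box) at -159 to -154 and CCAAT at -250 to -246. *Srek1* holds TGACG at -120 to -116 and, on the opposite strand, CCGGAAG (ETS) at -34 to -28. *Pnn* holds CCGGAAG at -62 to -56 and CCAAT at -98 to -94 and at -203 to -199, all on the opposite strand, and a further CCAAT at -17 to -13 beyond the stretch shown. No motif was found in all 3 genes, and none of the 3 held TGACNNNGC, the core of the antioxidant response element to which Nrf2 binds with its small Maf partners.

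Over the 250 bases of all windows, TGACNNNGC was found in 7 of 31 genes of the set (22.6%), in 13.7% of 11917 tested genes with a window and in 11.5% of 27025 genes with a window. TGACG was found in 48.4% of the set and 27.9% of tested genes, and the full element TGACGTCA, which contains it, in 6.45% and 2.81%. CCGGAAG stood at 32.3% against 13.8%, the palindromic motif of NRF1 (nuclear respiratory factor) at 19.4% against 8.07%, ATGGCGG (YY1) at 16.1% against 4.02% and TATAAA at 16.1% against 8.92%. For GGGCGG the shares were 67.7% and 60.3%, for CCAAT 41.9% and 40.1%, and for CACGTG 6.45% and 9.30%. TGACNNNGC can also overlap TGACG. A gene was counted where any of its windows matched, so genes with more windows had more chances. In the set *Acin1* had the most windows, 4. Numbers of windows were not compared between the set and other genes. A match is a description of letters and shows neither a site in use nor a cause, and with 31 genes no share was tested.

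Other genes of the splicing machinery were counted from 4 lists. Among 27 other speckle and RS-rich genes, 1 fell and 0 rose, with a median log2 fold change of -0.16. The gene was *Ccnl2*, for cyclin L2, a speckle cyclin that partners kinases of the Cdk11 type. It stood at 134 ± 13.5 normalised CPM in control and 79.4 ± 19.4 in Nrf2 eyes (SD, n = 7), a fitted change of -0.78 log2 units (SE 0.13, adjusted p = 0.0184 in edgeR) and 7 of 7 mice lower. Among 37 hnRNPs and other general RNA-binding proteins, which often oppose SR proteins, 1 fell and 0 rose, with a median of -0.14. This was *Hnrnpdl*, which like the SR genes has NMD-targeted transcripts in the annotation, at 50.7 ± 3.25 normalised CPM in control and 33.3 ± 6.11 in Nrf2 eyes (SD, n = 7), a fitted change of -0.63 log2 units (SE 0.12, adjusted p = 0.0265 in edgeR).

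Among 58 snRNP and spliceosome core genes, 1 fell and 1 rose, with a median of -0.11. Both encode subunits of the SF3b complex, which recognises the branch point. *Sf3b3* changed by -0.45 log2 units in the fit (SE 0.10, adjusted p = 0.0413 in edgeR, 7 of 7 mice lower) and *Sf3b5* one of 0.48 (SE 0.11, adjusted p = 0.0461, 7 of 7 mice higher). Among 23 tissue splicing regulators, such as those of neurons and muscle, 0 passed the test, with a median of -0.36. Of these 23, 3 had an unadjusted p under 0.05, where 18.1% of all genes did in either direction. In the 145 genes of these lists together 3 fell and 1 rose, with a median log2 fold change of -0.13, where it was -0.29 for the 34 genes of the SR network and -0.04 for all genes. The genes past the test in these lists, with *Egr1* from the list of immediate early genes below, numbered 5, and 6 with mice 3 and 4 left out. Their number was 0 without mouse 1, 3, 5 or 7, 2 without mouse 2, 1 without mouse 6 and 23 without mouse 4. Calls over all genes, 559 with all mice, were 143, 194, 155 and 111 without mouse 1, 3, 5 or 7, 387 without mouse 2, 240 without mouse 6 and 2052 without mouse 4. Whether the 34 genes differ from the 145 was not tested.

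**Figure D5:**
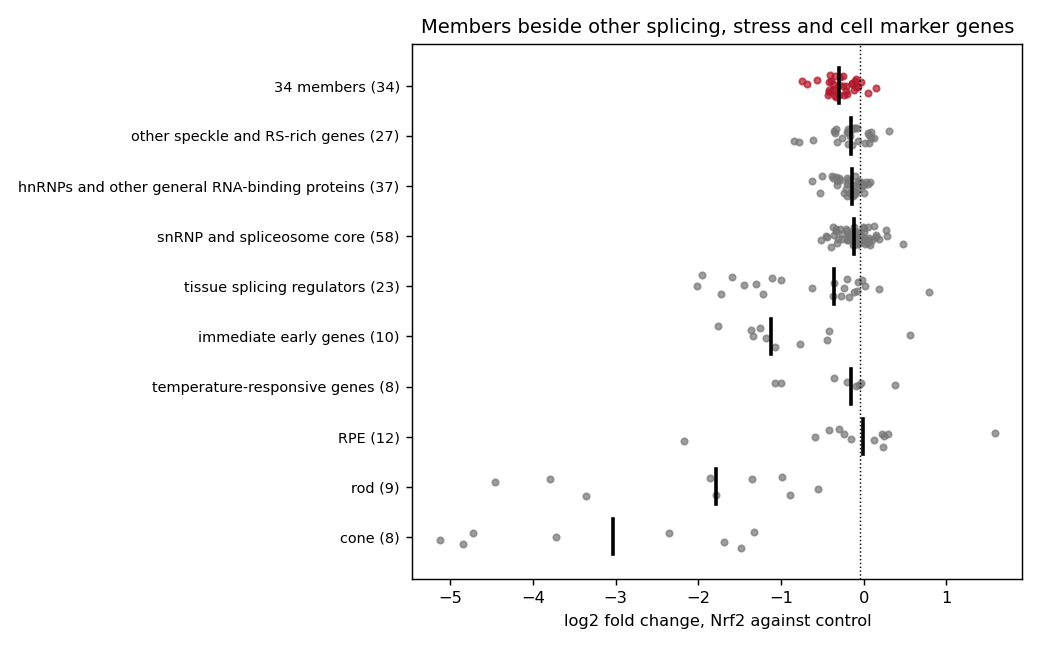
Log2 fold change, Nrf2 against control, of each gene in the 34-gene set without *Pnisr* (red) and in lists of other splicing genes, stress-responsive genes and cell markers (grey), with the number of genes in brackets. Black bars are list medians, the dotted line is the median of all genes at -0.04, and the height of a point within its row has no meaning. The 34 genes lie between -0.74 and 0.15, the tissue splicing regulators reach down to -2.01, and the rod and cone lists reach down to -4.45 and -5.12.

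Photoreceptor transcripts had lower values in Nrf2 eyes. All 9 rod genes and all 8 cone genes on the lists had log2 fold changes below 0, with medians of -1.78 and -3.03, and 0 of 9 and 2 of 8 passed the test. The cone genes past it were *Opn1sw*, short-wave opsin (-5.12, SE 1.13, adjusted p = 0.0469 in edgeR), and *Gnat2*, cone transducin (-1.69, SE 0.32, adjusted p = 0.0294). Summed over the list, cone transcripts ran from 43.1 to 919 normalised CPM in control and 19.7 to 92.2 in Nrf2 eyes, and rod transcripts from 22.4 to 465 and 7.47 to 101. No gene of either list was at 0 in all libraries.

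Cone sums were lower in the Nrf2 eye of 7 mice and rod sums in 6. Medians of the other marker lists were -1.40 for inner retina (7 of 8 genes tested), -1.04 for surface epithelium, -0.21 for endothelium, -0.01 for RPE, 0.11 for mitochondrial transcripts, 0.33 for fibroblasts and 0.82 for immune cells. In these 7 lists only *Rpe65* passed the test. Summed over the 4 surface epithelium genes, levels ran from 446 to 12790 normalised CPM in control and 545 to 5751 in Nrf2 eyes. This sum was lower in the Nrf2 eye of 6 mice. Control 6 had the highest surface epithelium sum and, at 12840 normalised CPM, the lowest RPE sum. The part of any of these tissues in the levels of the SR network was not tested.

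Immediate early genes respond within minutes to handling or stress. Of 10 immediate early genes 9 had a log2 fold change below 0, with a median of -1.13, and 1 passed the test: *Egr1*, a transcription factor of that class, at -1.36 (SE 0.27, adjusted p = 0.0348 in edgeR). Their summed level ran from 267 to 1221 normalised CPM in control and from 192 to 508 in Nrf2 eyes, lower in the Nrf2 eye of 6 mice. Of 8 temperature-responsive genes, listed because Clk activity follows body temperature, 0 passed the test, with a median of -0.15. Of these 8, 1 had an unadjusted p under 0.05, where 18.1% of all genes did in either direction. The part of handling or temperature in these results was not tested.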

How the data were processed

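RPE RNA from both eyes of 7 *rd1* mice at postnatal day 20 was measured in 14 libraries. Per the labels and methods, the authors removed the retina, took RNA from the eyecup, amplified it for low input, mapped reads on mm10 with Ensembl 91 and also quantified transcripts with Salmon 0.9.1. The deposited table holds 1 estimated count for each gene and library, in whole numbers and without normalisation. Its 34453 rows (21751 protein-coding, 12145 pseudogenes) point to the Salmon output rather than to counted alignments. Salmon shares reads among similar copies by a model, and no strand setting is given in the sources used here, so paralogs and overlapping genes are less certain. Libraries were sequenced in 2 runs that the labels do not assign to libraries, so runs and groups could not be compared. The study's methods name fewer paired replicates at this age than the 7 in the files and labels, and do not say which were used.

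The genes, their role groups and the comparison lists were chosen with earlier results of these data known. Counts were tested with edgeR 4.0.16 (R 4.3.3), using quasi-likelihood, TMM, filterByExpr by group (minimum count 10), terms for mouse and treatment, 6 residual degrees of freedom and a prior of 2.68. The Benjamini-Hochberg adjustment ran over 16289 genes, with a threshold of 0.05. SEs were derived from the F statistic. The vector row was kept in library totals and not tested. Log2 CPM used a prior count of 2. The scripts were tested on simulated counts. Total counts per library ran from 16548349 to 50543008. The RNA was amplified and carried no molecular identifiers, so the spread between mice was taken as the error.

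The mouse number of the labels pairs both eyes of an animal. Over 14113 genes, deviations from the group means correlated between the eyes of mice 1 to 7 by 0, 0.07, 0.06, -0.37, 0.36, -0.19 and 0.16. Values in every library are given for *Pnisr*, for each other gene of the set past the threshold and, in a role group without one, for the gene with the smallest p. Genes of other lists are named where they passed the threshold, or where a result turns on them. Alternatives were no block, RLE and upper-quartile scaling, DESeq2 1.42.0, voom with quality weights (limma 3.58.1), no filter, a mean count of at least 10, thinning to the smallest library, a threshold of 0.1, each mouse left out, mice 3 and 4 left out and, chosen after seeing the data, mice 2, 3 and 4 left out.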

Additional observations from a re-analysis of the deposited data

Results flagged for a closer look

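In 9 of the 70 groups of 7 values (35 genes, 2 groups), the lowest library was far from its neighbours by Dixon's criterion, where chance gives about 3.5. In 8 of the 9 the library was Nrf2 2, which also had the fewest counts and the largest share of counts on pseudogenes. The normalised CPM in Nrf2 2 were 126 for *Srsf2*, 56.9 for *Srsf6*, 77.4 for *Srsf9*, 13 for *Clk2*, 30.7 for *Luc7l*, 63.4 for *Srrm1*, 161 for *Srrm2* and 51.5 for *Arglu1*. The other was *Clk4* in control 3, at 30.6 normalised CPM. Of these genes only *Clk2* passed the test, and without mouse 2 it remained among the 3 genes called lower. The part of depth or pseudogene counts in these low values was not tested.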

How the results depend on the processing

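Over 18 alternatives, genes called higher numbered 0. Over the 17 of them with a fit of their own, the median log2 fold change of the 34 genes kept its sign. The number called lower was 4 as reported. Without the replicate block (no pairing of the eyes) it was 8, where 1.37% of all genes were called lower. It was 11 with DESeq2 (4.33% of all genes) and 13 with voom (6.19%). With no filter it was 2, where 40 of 29137 genes were called lower, and at a threshold of 0.1 it was 7, where 227 of 16289 were. It was 1 with mice 2, 3 and 4 left out (*Pnn*, 0.325% of all genes) and 0 to 9 with each mouse left out in turn. In the same order, all genes called in either direction numbered 559 as reported, 1100 without the block, 1943, 2594, 347 and 1030. They numbered 468 with mice 2, 3 and 4 left out, and 111 to 2052 with each mouse left out. Genes called in the other splicing and stress lists were 5 as reported, 13 without the block, 22, 27, 2, 12, 3 with mice 2, 3 and 4 left out, and 0 to 23. The number of the 34 called lower was 3 with RLE scaling, where 79 of 16289 genes were called lower. It was also 3 with upper-quartile scaling (88 of 16289) and with a mean count of at least 10 (74 of 17130). *Clk1* and *Pnn* each lost the call under 4 of 17 alternatives, *Clk2* under 7 and *Srek1* under 12, with adjusted p up to 0.0797, 0.0874, 0.0904 and 0.204.

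Some genes near 0 changed sign. *Srsf6* stood at 0.0214 with voom, from -0.1375 to 0.0692 with each mouse left out in turn and 0.0093 with mice 2, 3 and 4 left out. *Srsf12* stood at -0.0096 without the block, -0.43 with voom, and from -0.18 (without mouse 2) to 0.4770 with each mouse left out, below 0 also without mouse 5 (-0.028) and mouse 6 (-0.085). *Srpk2* stood between -0.0958 and 0.0003 with each mouse left out and at 0.023 with mice 3 and 4 left out. The cause of these changes was not tested. *Pnisr* stayed between -0.74 and -0.70.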
